A study of Mus musculus with 6 samples.

Results

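The genes described here encode small nuclear RNAs (snRNAs), small nucleolar RNAs (snoRNAs) and microRNAs (miRNAs), and the measurement is the presence of a peak of NUP214, a nuclear pore protein, on the chromatin beside them. They were chosen by annotation alone: every mouse RefSeq gene of these 3 biotypes on chromosomes 1 to 19, X and Y, 3572 of 49943 RefSeq genes, of which 1004 are snRNA, 1340 snoRNA and 1228 miRNA genes. A gene counted as holding a peak when a peak lay within 1 kb of its span. Genes inside a protein-coding gene or within 1 kb of either of its ends were kept apart from the others.

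NUP214 was mapped by CUT&Tag, in which an antibody brings a transposase that cuts and tags nearby DNA, in 6 libraries of bone marrow cells that fall into 3 groups, each a pair of libraries. The control group is leukemia stem cells (LSCs), gated as c-Kit+, CD16/32+ and CD34+ but negative for lineage markers and Sca-1, from Nup214fl/+ mice carrying leukemia driven by the MLL-AF9 fusion. The HET group (labelled Nup214-HET) has that gate and that leukemia, but the mice are Nup214fl/+,Tie2-Cre, with a recombinase that Tie2 drives in blood and endothelial cells. The HSC group is hematopoietic stem cells, gated as CD48- and CD150+ within LSK, from Nup214fl/+ mice labelled as normal. The genotype of all 3 groups includes 1 floxed Nup214 allele, and only that of the HET group adds the recombinase. No age or sex is given. The cell type entry of the labels reads hematopoietic stem cell for every library, so groups follow the titles. No library without the antibody was analysed here, and no label ties the paired libraries to separate animals, so tests measure only the spread between libraries, which may be technical. Fewer cells with NUP214 at a gene and less NUP214 per cell cannot be told apart. The lists hold peaks only, so a marker gene's peak is no measure of its expression: peaks lay at 3 and 1 of 6 HSC markers in the control pair, 0 and 1 in the HET pair and 0 in either HSC library. Of 7 LSC and granulocyte-monocyte markers the counts were 5 and 3, 2 and 1, and 1 and 0, and of 11 markers of other blood and endothelial cells 5 and 2, then 0 in each of the other libraries. Over all 21887 protein-coding genes, the share with a peak within 1 kb of the span was 55.2% and 31.2% in the control pair. It was 17.6% and 14.9% in the HET pair and 2.51% and 1.13% in the HSC pair.

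Spliceosomal snRNAs recognise splice sites and build the catalytic core that removes introns, while 7SK RNA holds the elongation kinase P-TEFb inactive and U7 RNA guides histone mRNA 3′ end formation. Most vertebrate snoRNAs are cut from introns of host genes, many of them ribosomal protein genes or non-coding hosts, and guide methylation (box C/D) or pseudouridylation (box H/ACA) of ribosomal RNA. miRNAs are processed from longer primary transcripts and repress mRNAs through pairing of their seed, bases 2 to 8. snRNA genes have promoters of their own and occur in many near-identical copies, so reads can be hard to place among them. How reads that match several places were handled is not given in the sources used here, and values at such copies are uncertain.

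The miRNAs on which the account of blood and recurrent miRNA genes turns are shown as mature sequences from RefSeq (GRCm38.p6, the build that mm10 names), with the seed in capitals. The table held a mature sequence for 118 of the 128 miRNA genes with a peak. The first 5 come from a pair of clusters with peaks in both control libraries and no HET library. They are miR-23a, miR-27a and miR-24-2 on chromosome 8, and miR-212 and miR-132 on chromosome 11, both on the plus strand. The following pair shares the host gene Dalrd3 and was called in both LSC groups, and the last pair was called in 5 and 6 libraries.
mmu-miR-23a-3p: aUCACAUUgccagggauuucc
mmu-miR-27a-3p: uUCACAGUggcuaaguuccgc
mmu-miR-24-3p: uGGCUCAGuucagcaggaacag
mmu-miR-212-3p: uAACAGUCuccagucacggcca
mmu-miR-132-3p: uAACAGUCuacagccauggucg
mmu-miR-191-5p: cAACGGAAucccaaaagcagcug
mmu-miR-425-5p: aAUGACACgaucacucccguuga
mmu-miR-707: cAGUCAUGccgcuugccuacg
mmu-miR-101c: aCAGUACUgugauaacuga
miR-212-3p and miR-132-3p share the seed AACAGUC. It was the seed of 2 miRNA genes with a peak, and the other 7 seeds shown were each found in 1.

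In the control pair, 243 small RNA genes (6.80%) held a peak in library 1 and 151 (4.23%) in library 2. In the HET pair the counts were 80 (2.24%) and 74 (2.07%), and in the HSC pair 9 (0.252%) and 3 (0.0840%). The background is the share of all 2.1 kb windows of the genome, the size of a median small RNA gene with 1 kb on each side, that met a peak: 2.2% and 0.899% in the control pair, 0.526% and 0.449% in the HET pair, and 0.0901% and 0.0547% in the HSC pair. The members' share was 3.09, 4.70, 4.26 and 4.61 times that of windows in the LSC libraries in the same order. The lists differ in length, from 25437 peaks in control library 1 to 634 in HSC library 2, and give no read totals. A relative depth inferred from the deposited folds and p-values was 3.72 and 1 in the control pair, 1.77 and 1.72 for HET and 4.91 and 1.95 for HSC, so the HSC lists are not the shallowest by this measure. The part of depth in the counts was not tested. The HSC lists also differ in where their peaks lie. An end of a coding or long non-coding gene lay within 1 kb of 19.2% and 5.36% of HSC peaks. In the LSC lists it lay that near to 40.2%, 43.3%, 40.9% and 38.8% of peaks. The part of this difference in the counts was not tested either. Of the 3572 genes, 3293 had no peak in any library, 128 had one in 1 library and 44 in 4 libraries.

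The control libraries stood highest, the HET libraries below them and the HSC libraries lowest, without overlap between groups. Control libraries averaged 5.52% ± 1.82 (SD, n = 2). HET libraries averaged 2.16% ± 0.119 (SD, n = 2) and HSC libraries 0.168% ± 0.119 (SD, n = 2). The difference of the control and HET groups was 3.36 percentage points, that of the control pair and the HSC pair 5.35, and that of the HET pair and the HSC pair 1.99. Each had p = 0.333 by a two-sided exact permutation test of the library values, the smallest that 2 against 2 libraries can give, so no comparison here can pass 0.05. The windows moved the same way: the ratio of control to HET means was 2.56 for members and 3.18 for windows. With every list reduced to its 634 strongest peaks, the counts were 16 and 16 in the control pair, 12 and 15 in the HET pair, and 6 and 3 in the HSC pair, and the first difference shrank to 0.0700 points. Without control library 1 that difference was 2.07 points at 1 kb, and without control library 2 it was 4.65. Counting only peaks that overlap the gene itself gave 65 and 29 in the control pair against 34 and 35 in the HET pair, so that those groups overlapped.

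Both control libraries had a peak at 134 genes, against 0.594% of windows, and both HET libraries at 49, against 0.181%. Both HSC libraries shared 2 genes (background 0.0184%). All 4 LSC libraries shared 43 genes, or 1.20% of members against 0.125% of windows. A peak in both control libraries and in neither HET library was found at 59 genes (1.65% against 0.365%), and the opposite pattern at 0 genes (background 0.0161%, with 0 of 3572 allowing a share of up to 0.0840%). Of the control set, 129 genes had no peak in either HSC library (3.61% against 0.562%). The 43 shared genes are 32.1% of the control set and 87.8% of the HET set, where windows gave 21.1% and 69.2%. Of the 134 genes of the control set, 75 (56.0%) had a peak in at least 1 HET library, against 38.7% of windows. Within the control set, then, a smaller part of members than of windows lacked a peak in both HET libraries. All 49 genes of the HET set had a peak in at least 1 control library, as did 91.15% of the windows called in both HET libraries.

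In the LSC libraries, shares were highest by the ends of coding genes. Of the 265 genes within 1 kb of such an end, 107 and 73 held a peak in the control libraries (40.4% and 27.5%) and 39 and 32 in the HET libraries. Of the 1456 genes inside a coding gene but farther from its ends, the counts were 57, 32, 18 and 17, and of the 1851 genes away from coding genes 79, 46, 23 and 25. Windows of the same 3 places held peaks at 21.7%, 2.19% and 1.22% in control library 1. snRNA genes away from coding genes exceeded their windows most in the HET libraries: 12 and 14 of 626 (1.92% and 2.24%) held a peak against 0.308% and 0.275% of such windows. The same 626 genes gave 34 and 18 in the control pair, 1 in HSC library 1 and 0 in HSC library 2. The places differ in their make-up, since 12.2% of miRNA genes but 3.29% of snRNA genes lie at a coding gene's end.

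**Figure D1:**
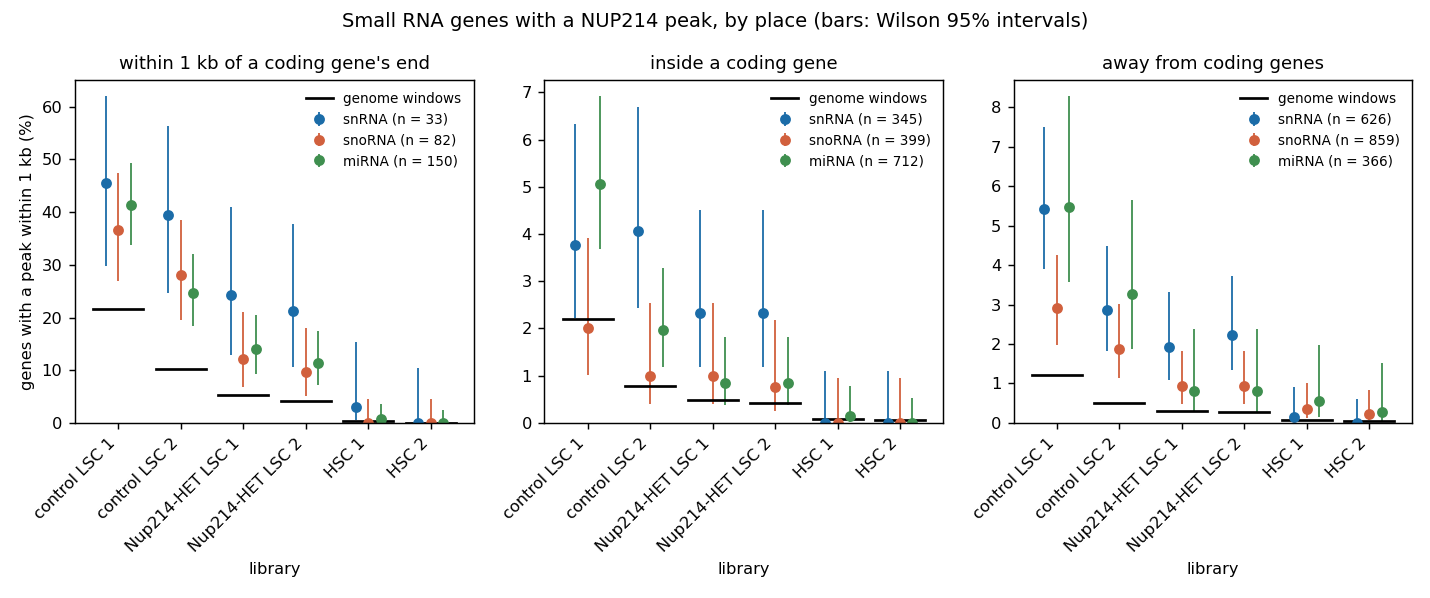
Percent of snRNA, snoRNA and miRNA genes with a NUP214 peak within 1 kb (points, with Wilson 95% intervals that cover counting error only) in each library, in 3 panels by place, with black lines for genome windows of the same place. In the LSC libraries points lie highest near coding gene ends, and the snRNA points away from coding genes stay above the window line in all 4 LSC libraries.

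By class, snRNA genes held peaks at 62 and 45 of 1004 in the control pair and 28 and 29 in the HET pair. snoRNA genes held them at 63 and 43 of 1340 and at 22 and 19, and miRNA genes at 118 and 63 of 1228 and at 30 and 26. The mean share of snRNA genes was 5.33% ± 1.20 (SD, n = 2) in the control pair and 2.84% ± 0.0700 (SD, n = 2) in the HET pair, a ratio of 1.88. The corresponding ratio was 2.585 for snoRNA genes and 3.23 for miRNA genes, against 3.18 for windows. Whether these ratios differ between classes was not tested. In the 27 comparisons of class, place and groups, no adjusted p was below 0.346 by the exact permutation test with Benjamini-Hochberg adjustment. Of the control set, 17 of 37 snRNA genes (45.9%), 10 of 39 snoRNA genes (25.6%) and 16 of 58 miRNA genes (27.6%) were also in the HET set. Median peak width was 274 and 212 bp in the control pair and 435 and 454 bp in the HET pair, and the part of these widths in the counts at 1 kb was not tested. For snRNA genes inside coding genes, the control and HET difference turned to -0.580 points when only overlapping peaks counted.

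The snRNA genes with established names held peaks at a higher share than the rest. Of 16 genes with Rn symbols, 12 and 9 were called in the control pair, 9 and 8 in the HET pair, 1 in HSC library 1 and 0 in HSC library 2. Of the other 988, nearly all with Gm or LOC symbols, 50, 36, 19, 21, 1 and 0 were called. The Rn symbols include the U3 genes Rnu3a and Rnu3b1 to Rnu3b4, each called in control library 1 and HET library 1. Rnu1a1 and the Rnu3b genes lie in the same run, described below, so the calls by symbol are not all of separate loci. Among major spliceosome genes, Rnu1a1 (U1, which pairs with the 5′ splice site) had a peak in all 4 LSC libraries, with fold enrichments of 6.54, 6.00, 3.86 and 4.77. A fold is the authors' ratio of the summit to the local background, used here only to place a peak within its own list. Rnu2-10 (U2, which pairs with the branch site) had folds of 13.7, 6.40, 4.86 and 4.85, the first at the 94.1st percentile of its list. Rnu5g (U5) was called in both control libraries (folds 7.65 and 5.28) and in no HET library. No peak lay by Rnu1b1, Rnu1b2, Rnu1b6 or Rnu6 in any library.

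Of the minor spliceosome, Rnu12 (U12, at chr15:83149645-83149794 and 267 bp from an end of Poldip3) held a peak in all 4 LSC libraries, with folds of 9.71, 8.43, 5.40 and 5.36. Its summits lay 42, 43, 248 and 0 bp from the gene, and every peak overlaps it. Rnu11 (U11) had a peak in control library 1 alone, at a fold of 4.68. Rn7sk, the 7SK gene, was called in control library 1 and both HET libraries with folds of 10.0, 6.37 and 5.40, and not in control library 2. Rnu7 (U7), 156 bp from an end of Grcc10, was called in both control libraries (7.99 and 5.49) and not in the others. Rnu3a, which encodes U3, an RNA of ribosomal RNA processing that this annotation files under snRNA, was called in 3 LSC libraries with folds of 10.4, 9.15 and 6.41. It also had a peak in HSC library 1, at a fold of 5.82.

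Some snRNA genes with peaks lay in runs. Genes no more than 50 kb apart, with at least 3 of them called in some library, formed 5 runs of 26 genes in all, 2.59% of snRNA genes. Since calls chose the runs, their share of called genes is a description: they held 35.5% and 31.1% of the called snRNA genes in the control pair and 50.0% and 55.2% in the HET pair. In the run at chr11:87422867-87471582, inside the coding gene Tex14, lie Rnu1a1, Gm22068, Rnu3b1, Gm23137, Rnu3b3, Rnu3b4 and Rnu3b2. Of these 7 genes, 7 and 6 were called in the control pair, 7 and 7 in the HET pair, and 0 in either HSC library. Their nearest coding gene end can be far away: Rnu3b3 lies 43614 bp from one, and its summits lay 229, 229, 168 and 181 bp from the gene. Rnu3b1 and Gm23137 share a peak. The run at chr11:101604850-101658424 ends with Rnu2-10, and 5, 3, 3 and 4 of its 5 genes were called.

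A run of 7 genes of 164 bp, the length of Rnu1a1, lies at chr12:54696782-54738622. Gm22634 in that run ranked highest of all snRNA genes in control library 1, with folds of 29.6, 20.4, 15.4 and 15.3, above the 99th percentile of each LSC list, and lies 14409 bp from the closest coding gene end. Its summits fell 254, 252, 255 and 245 bp from the gene, within 10 bp of each other in the 4 libraries. Its neighbour Gm22513, 883 bp from an end of Eapp and with peaks that cover the Eapp start, was also called in all 4 LSC libraries, Gm26444 and LOC115488077 in 1 each, and the other 3 copies in none. The run at chr1:72226240-72255198 has 4 genes of 191 bp, with 4, 1, 2 and 2 called. The run at chr4:117189942-117210959 has 3 genes of 116 bp, the length of Rnu5g, with 3, 1, 0 and 1 called. Gm24265 and Gm24407, both of 141 bp and inside Sirt4, share a peak in all 4 LSC libraries.

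**Figure D2:**
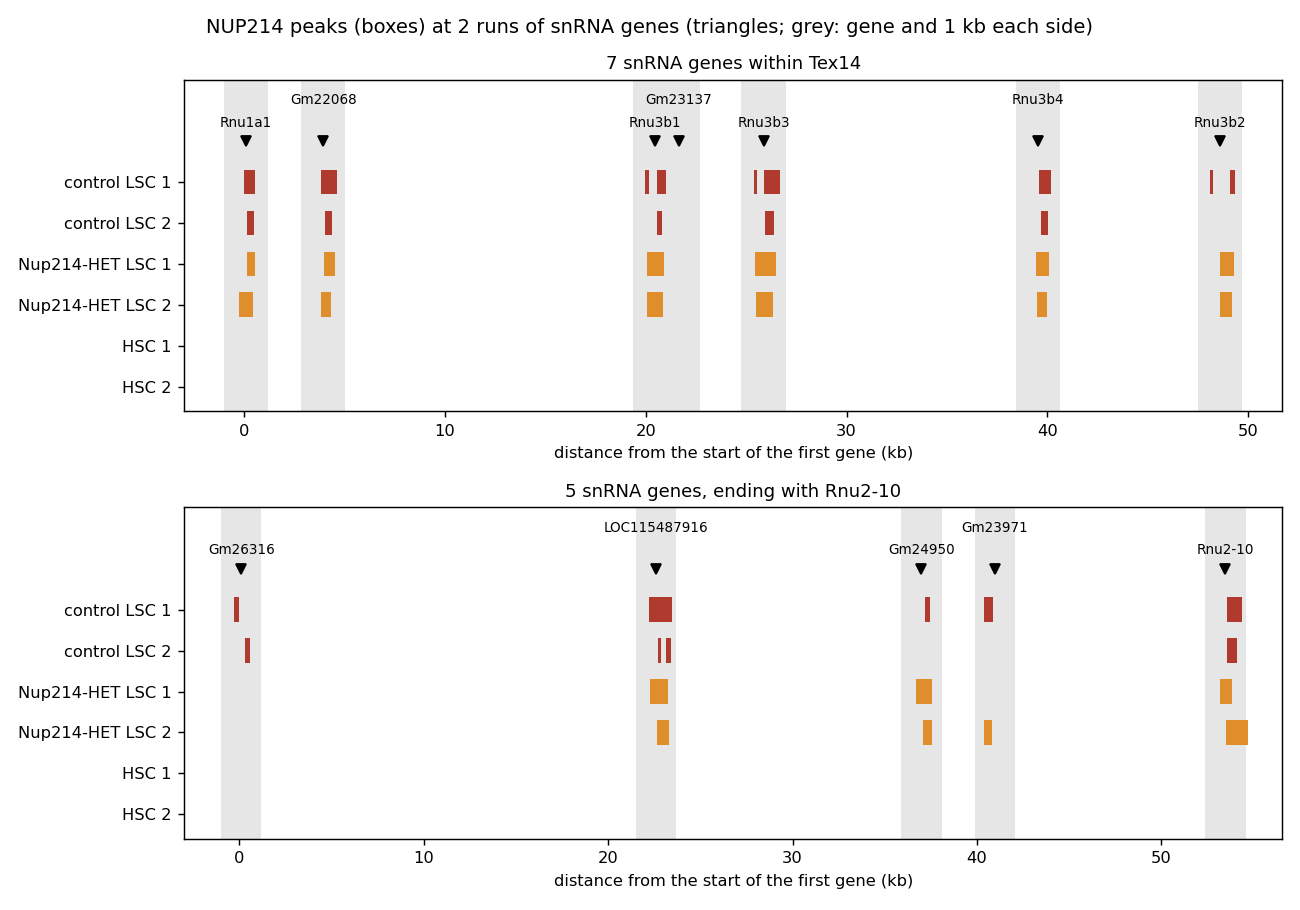
NUP214 peaks (boxes, one row per library) along 2 runs of snRNA genes on mouse chromosome 11, by distance in kb from the start of the first gene, with triangles for genes and grey for each gene with 1 kb on each side. Peaks of the LSC libraries lie beside the genes and not between them, and the HSC rows are empty.

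Gene length, which the choice of members did not use, was uneven among snRNA genes with peaks. Over all lengths, 74 of 1004 snRNA genes (7.37%) had a peak in some library. The largest class, 385 genes of 107 bp (the length of Rnu6), had 15 genes with a peak in some library. Of 15 genes of 191 bp, 9 had one, of 9 genes of 116 bp 7, and of 34 genes of 164 bp 6. All 3 genes of 215 bp, which are U3 copies, were called. In control library 1 the counts were 13 of 385, 9 of 15, 6 of 9 and 5 of 34 in the same order. The genes of 215 bp and most called genes of 191 and 164 bp lie in the runs described above. Counts by length and by run are therefore not separate results. These lengths are given as the annotation has them, and copies of 1 length were not compared by sequence.

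snRNA peaks lay closer to their genes than snoRNA peaks did, and most snoRNA peaks lay by annotated starts. The median distance from summit to gene was 299.5 and 296 bp for snRNA in the control pair and 280.5 and 242 bp in the HET pair. For snoRNA it was 757 bp in both control libraries and 822.5 and 804 bp in the HET pair. An annotated transcript start lay within 1 kb of the peak for 27.9%, 27.3%, 25.9% and 31.0% of snRNA genes, for 72.6%, 74.4%, 86.4% and 73.7% of snoRNA genes, and for 59.6%, 58.1%, 69.0% and 68.0% of miRNA genes. Among all peaks of these lists it was 34.9%, 38.7%, 36.7% and 34.8%. The start table covers 17492 of 21887 coding genes, and Poldip3 beside Rnu12 is among those it lacks. With gene ends of coding and long non-coding genes in its place, the share was 37.1%, 44.4%, 53.6% and 55.2% for snRNA and 85.7%, 86.0%, 86.4% and 78.9% for snoRNA, against 40.2%, 43.3%, 40.9% and 38.8% of all peaks. Few summits fell inside a gene: 2, 0, 0 and 2 for snRNA, and 7, 2, 1 and 1 for miRNA.

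**Figure D3:**
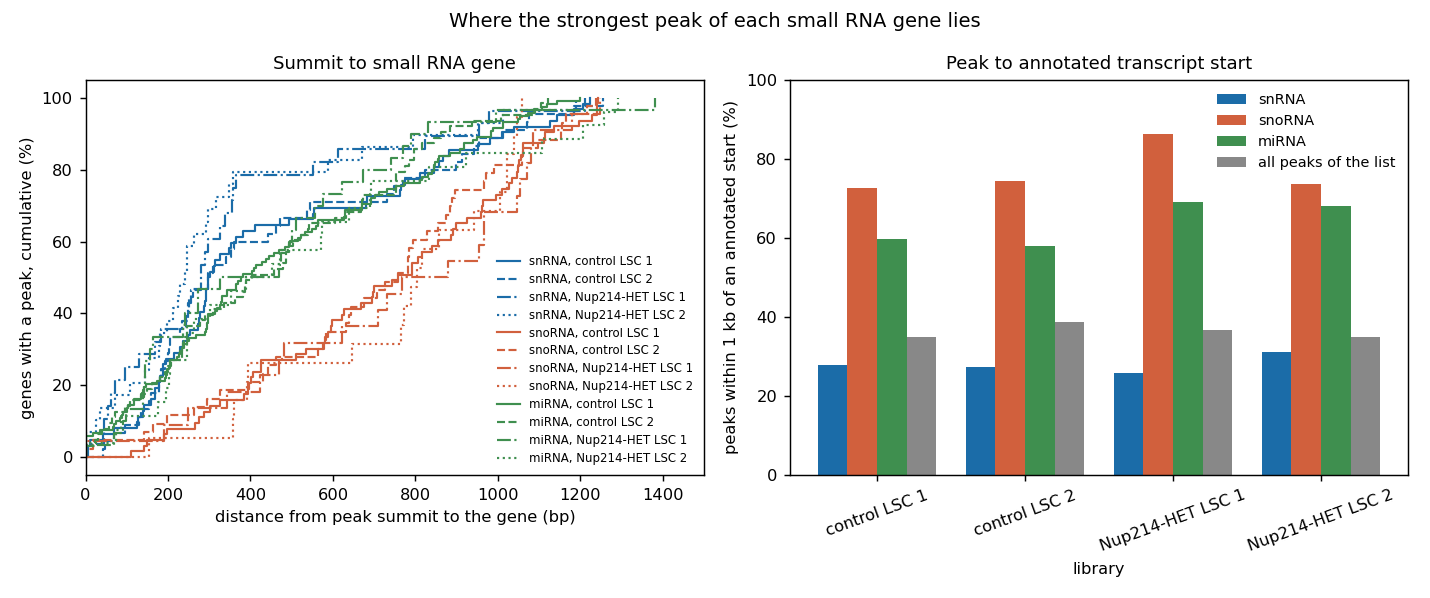
Left, cumulative percent of small RNA genes with a peak against the distance in bp from the summit of their strongest peak to the gene, per class and LSC library. Right, percent of those peaks within 1 kb of an annotated transcript start, with all peaks of the list in grey. The snRNA curves rise at shorter distances than the snoRNA curves, and the snoRNA bars exceed 72% in each library.

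The share of snoRNA genes with a peak differed between kinds of host. In non-coding hosts of the Snhg family and Gas5, 14, 10, 7 and 8 of 39 snoRNA genes held a peak in the LSC libraries, and in ribosomal protein genes 16, 12, 7 and 3 of 58 (27.6% and 20.7% in the control pair). As background, windows at coding gene ends met a peak at 21.7% and 10.2% in the control pair and 5.30% and 4.25% in the HET pair. Windows inside coding genes did at 2.19%, 0.778%, 0.483% and 0.418% in the LSC libraries, and those away from coding genes at 1.22%, 0.497%, 0.308% and 0.275%. Counted over whole gene spans, which are wider, 55.2% and 31.2% of protein-coding genes met a peak in the control pair. For long non-coding genes these shares were 25.1% and 11.5%. Of 534 snoRNA genes with no host, 8, 6, 2 and 2 held one. In other long non-coding genes 14, 9, 2 and 0 of 109 did, and in 9 further coding genes listed as hosts 2, 0, 1 and 0 of 26. In other coding genes 7, 5, 1 and 3 of 361 did (1.939% and 1.385% in the control pair). Named box H/ACA genes were called at 12, 8, 5 and 4 of 39 and named box C/D genes at 16, 9, 7 and 2 of 94. No gene of either list was called in an HSC library. Within Gas5, a non-coding host of box C/D snoRNAs, 3 of 8 snoRNA genes were called in each LSC library, and within Snhg1 2 of 8. Those of each host share a single peak per library.

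Among snoRNA genes away from coding genes, Gm26306, which has no host, and Snora24, in Snhg8, had the highest peaks in control library 1. The peaks of Snord49a and Snord49b ranked above them in control library 2 and HET library 1. For Snora24 the folds were 18.3, 12.5, 6.92 and 7.52, at the 99.1st, 96.0th, 81.8th and 88.7th percentiles, and each peak covers the start of Snhg8. For Gm26306 they were 19.8, 12.3, 7.22 and 7.18, with a peak that covers the start of Slc37a4. Only the Gm26306 gene, and not this peak, is thus placed away from coding genes. Snora3, in the ribosomal protein gene Rpl27a, had folds of 13.0, 7.28, 5.41 and 6.33 from a peak over the Rpl27a start. Snora64 in Rps2 and Snora78 in Snhg9 share a peak that covers the starts of both hosts, with folds of 10.6, 7.22, 4.69 and 4.52. Snord49a and Snord49b share a peak in both control libraries and HET library 1. Snora26 in Dancr and Snord104 in Gm36220 were called in both control libraries and in no other. Snora73a in Snhg3, which acts in ribosomal RNA processing, had the same pattern, with folds of 9.35 and 4.56.

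Some snoRNAs have promoters of their own. Snord118 (U8, needed for ribosomal RNA processing), 133 bp from an end of Tmem107, had a peak in control library 1 at a fold of 7.50. Snord13 (U13), 358 bp from an end of Tti2, was called in both control libraries at 7.84 and 5.32. Neither was called in the HET pair or the HSC pair. Snord118 and Snord13 had summits 111 bp and 266 and 19 bp from the gene, closer than the snoRNA median.

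Of 6 snoRNA hosts called in all 4 LSC libraries, the 300 bases around the starts of 4 are shown, since the peaks of their snoRNAs lie over or beside those starts. Rpl27a, Snhg9 and Snhg1 are the 3 of these hosts with a run of C or T at the start, and Snhg8 stands for those without one, which also include Gas5 and Rps2. They run from 250 bases before to 50 after the start (RefSeq, GRCm38.p6). Rpl27a (chr7:109518945-109519244, plus strand) hosts Snora3, Snhg9 (chr17:24719916-24720215, minus strand) hosts Snora78, Snhg1 (chr19:8723237-8723536, plus strand) hosts LOC115489078, and Snhg8 (chr3:123508287-123508586, minus strand) hosts Snora24. Capitals mark a run of at least 8 C or T within 10 bases of the start, a feature of the starts of translation-machinery genes.
Rpl27a promoter: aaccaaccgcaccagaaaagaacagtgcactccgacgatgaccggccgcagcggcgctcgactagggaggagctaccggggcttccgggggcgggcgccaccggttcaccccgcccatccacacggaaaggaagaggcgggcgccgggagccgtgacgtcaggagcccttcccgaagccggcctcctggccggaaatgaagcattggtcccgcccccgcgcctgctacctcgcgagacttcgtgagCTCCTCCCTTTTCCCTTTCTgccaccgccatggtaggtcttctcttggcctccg
Snhg9 promoter: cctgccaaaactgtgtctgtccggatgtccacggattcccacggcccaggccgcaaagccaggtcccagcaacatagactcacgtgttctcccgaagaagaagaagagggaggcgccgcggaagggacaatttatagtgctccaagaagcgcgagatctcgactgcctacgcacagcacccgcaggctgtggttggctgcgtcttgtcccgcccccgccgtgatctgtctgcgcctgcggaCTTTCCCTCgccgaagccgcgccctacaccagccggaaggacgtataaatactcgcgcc
Snhg1 promoter: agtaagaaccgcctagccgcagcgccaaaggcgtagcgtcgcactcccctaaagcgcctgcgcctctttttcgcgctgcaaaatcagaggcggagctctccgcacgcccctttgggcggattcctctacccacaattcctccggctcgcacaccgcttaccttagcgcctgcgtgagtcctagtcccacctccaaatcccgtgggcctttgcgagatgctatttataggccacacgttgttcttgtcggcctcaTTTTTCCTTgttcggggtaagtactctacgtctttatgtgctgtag
Snhg8 promoter: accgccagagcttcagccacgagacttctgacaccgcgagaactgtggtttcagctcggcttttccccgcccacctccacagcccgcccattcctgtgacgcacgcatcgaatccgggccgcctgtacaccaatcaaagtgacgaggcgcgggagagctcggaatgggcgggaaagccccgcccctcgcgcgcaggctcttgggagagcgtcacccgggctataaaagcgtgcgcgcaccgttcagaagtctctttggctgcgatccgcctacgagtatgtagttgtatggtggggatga
The run is 20 bases long in Rpl27a, 9 in Snhg9 and 9 in Snhg1. Over all 27025 genes with a start in the table, 16.1% have such a run on the transcribed strand, against 21.4% of 370 snoRNA hosts, 27.5% of the 40 hosts of snoRNA genes called in control library 1 and 40.0% of 20 ribosomal protein hosts. CCGGAAG, the core bound by ETS-family factors, stands on either strand in 9.93%, 14.1%, 17.5% and 40.0% of the same sets, and it can occur beside the run or apart from it. These matches describe letters within the window and carry no test.

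miRNA peaks lay mostly upstream of the hairpin. Among miRNA genes whose strand the sequence table gives, the summit was upstream in 70 of 103 and 41 of 55 in the control pair and in 18 of 25 and 19 of 23 in the HET pair. Of a list of 59 miRNA genes known from blood and leukemia, 10, 8, 1, 2, 1 and 0 held a peak in the 6 libraries, the control pair first and the HSC pair last. Over all miRNA genes the shares were 9.61%, 5.13%, 2.44% and 2.12% in the LSC libraries. Of the listed genes called in the control pair, 5 belong to the miR-23a and miR-212 clusters, whose genes share a peak within each cluster. None of 15 genes of the miR-17 clusters, of 11 let-7 genes or of 29 listed imprinted miRNA genes held one, and of 35 tissue-restricted miRNA genes only Mir9-1 did, in control library 1. Mir9-1 is also on the blood and leukemia list, so both lists count its peak. Other miRNA genes of imprinted loci, chosen after their values were seen, did hold one: Mir341 and Mir1188, in Rian, share a peak in control library 1 (fold 4.14), and Mir669c and Mir669a-2, in Sfmbt2, share one in HET library 1 (3.53). Many of these clusters have promoters farther than 1 kb away, which were not searched here.

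The miR-23a cluster (Mir23a, Mir27a, Mir24-2 and the overlapping Mir3074-2), studied in blood lineage choice and shown above, lies away from coding genes. Its 4 genes share a peak in both control libraries, with folds of 6.83 and 4.89, and none was called in the HET pair or the HSC pair. Mir212 and Mir132, which share a seed, share a peak too, with folds of 6.57 and 5.28 in the same libraries and none elsewhere. Both folds rank in the middle of their lists, at the 51.6th and 43.2nd percentiles for Mir212. Mir34c, a target of p53, was called in both control libraries (5.82 and 4.37) and Mir150, abundant in mature lymphocytes, in control library 1 alone (4.29). Mir191 was called in all 4 LSC libraries with folds of 6.48, 4.57, 5.05 and 4.73, from a peak that covers the start of Ndufaf3, and Mir425 in 3 of them. Mir181a-1 had a peak in HSC library 1 only, at a fold of 4.71. Mir210, which hypoxia induces, was called in both control libraries and HET library 1 at 12.5, 8.64 and 6.00.

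Among miRNA genes at or inside coding genes that all 4 LSC libraries called, Mir1894 in Ppp1r10 had folds of 13.4, 11.5, 9.95 and 8.42, above the 93rd percentile of each list. Mir7238 in Ankrd10, Mir7009 in Anxa5, Mir7036b in Add1 and Mir5627 were also called in all 4, at percentiles from 68.9 to 97.8. Mir707, in Akt1s1, was called in 5 libraries, with a fold of 5.50 in HSC library 1. The highest miRNA fold away from coding genes was at Mir6236, with 34.5 and 19.9 in the control pair (99.9th and 99.5th percentiles) from peaks with their summit inside the gene, and it was not called in the HET pair or the HSC pair.

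**Figure D4:**
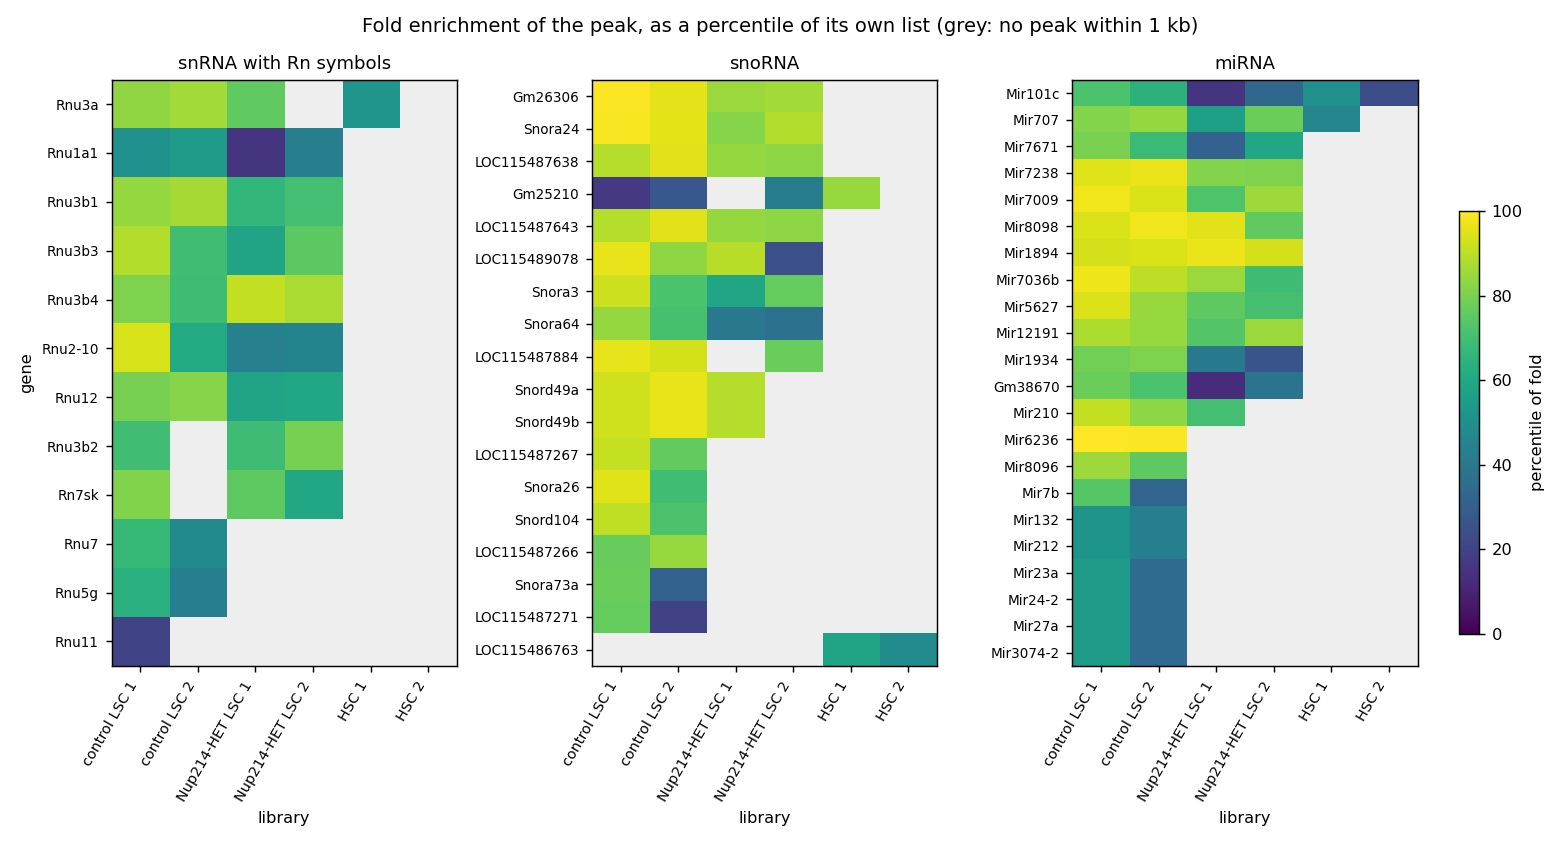
Fold enrichment of the strongest peak within 1 kb of each gene as a percentile of its own list, for snRNA genes with Rn symbols, snoRNA genes and miRNA genes taken by the naming rule, by library, with grey where no peak was called. Gm26306, Snora24 and Mir6236 exceed the 99th percentile in control library 1, and the HSC columns are nearly empty.

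In the HSC pair, 9 and 3 small RNA genes held a peak, and 10 genes did so in at least 1 of these libraries. Mir101c, in a region called in all 6 libraries, had folds of 8.53, 6.63, 3.89, 4.35, 5.73 and 4.70, and was the only member within the 109 regions that all lists share. The other gene called in both HSC libraries was LOC115486763, a 94 bp snoRNA gene in Snhg14, the imprinted host of tandem snoRNA copies, at folds of 5.96 and 5.50. Its summits lay 0 and 21 bp from the gene. Within Snhg14, 1, 1, 2, 3, 3 and 2 of 203 snoRNA genes were called (0.493%, 0.493%, 0.985%, 1.48%, 1.48% and 0.985%). Windows away from coding genes gave 1.22%, 0.497%, 0.308%, 0.275%, 0.0753% and 0.0543% in the same order. The control shares were thus not above those windows. Of the 7 Snhg14 genes called in any library, Gm25210 was called in 4 libraries. Gm23313 was called in HSC library 1, Gm23446 in HET library 2 and HSC library 2, and Snord116l12 in HET library 1.

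Genes lie on both sides of the 1 kb limit. In control library 1, 23 genes had their nearest peak 800 to 1000 bp away and 23 had it 1000 to 1200 bp away, and in control library 2 the counts were 20 and 14. In the HET pair they were 9 and 13, and 6 and 7. Gm26306 lies just inside the limit in control library 1 and in both HET libraries. Mir181a-1 lies just inside it in HSC library 1 and its neighbour Mir181b-1 just outside.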

How the data were processed

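Peaks of NUP214 CUT&Tag were taken from 6 lists, 1 per library, that the authors called separately, per the file layout. Bowtie2 2.2.9, FastQC 0.11.5, ChIPseeker, MACS2 and the mm10 build are listed in the submitters' processing notes. No MACS2 settings, control sample or treatment of duplicates is given in the sources used here. A row of the authors' lists holds a score, a fold enrichment (a linear ratio), −log10 values of p and q, and the offset of the summit, as deposited. All 6 lists end near a q of 0.05. Read totals are absent from them. A relative depth was inferred by solving fold and −log10 p of each peak for a whole read count and a Poisson background, which solved at least 97.5% of the peaks of each list, and dividing the lowest background by the narrowest peak's width, taken as the fragment length; it is given relative to the lowest library and rests on these assumptions.

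Only peaks on the numbered and sex chromosomes entered the counts. Gene spans and biotypes were those of RefSeq on GRCm38.p6, in a table without strand. Strands and starts came from the sequence tables where these hold the gene. Each gene was placed within 1 kb of a coding gene's end, inside a coding gene, or away from both. Background windows of 2106 bp tile the chromosomes, 1283463 in all, and were placed the same way. Small Cajal body RNA genes have another biotype in this table and are no members. Shares per library were compared by exact permutation tests, two-sided, with Benjamini-Hochberg adjustment over 27 comparisons of class and place. Intervals are Wilson 95% intervals and, like the limit of 3 counts behind a count of 0, cover counting error only.

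The naming rule takes every called snRNA gene, up to 15 snoRNA and 15 miRNA genes away from coding genes called in both control libraries, up to 10 of each at or inside coding genes called in all 4 LSC libraries (1 per shared peak), by mean percentile of fold in the control pair, every gene called in both HSC libraries, every gene called in both HET libraries and no control library, and every called gene of the lists. It named 141 genes. Genes named in the account of the 1 kb limit and of Snhg14 beyond these were chosen after their values were seen. The members, lists and rules were chosen with earlier results of these data known. Alternatives were windows of 0 bp, 500 bp and 5 kb, a −log10 q of at least 2.64, lists of equal length, leaving out the shared regions, merging neighbouring genes into loci, a coding-end limit of 5 kb, leaving out each library, and pairing by number. Counting and tests were checked on simulated data. Python 3.11.15, pandas 2.3.3, numpy 2.4.6 and scipy 1.17.1 were used.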

Additional observations from a re-analysis of the deposited data

Results flagged for a closer look

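Peaks on sequences outside the chromosomes, which no count above uses, numbered 52 and 42 for the control group, 30 and 30 for the HET group and 50 and 30 for the HSC group, each above the 3 counts that a count of 0 allows.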

How the results depend on the processing

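The 3 differences in the share of all members kept their direction under all 15 alternatives. Some of these cannot change such a difference: the coding-end limit of 5 kb, pairing by number, and leaving out a library of the group not compared. Among the 27 class and place differences, 5 values turned: with lists of equal length, control against the HET pair for snRNA inside coding genes (-0.725 points) and away from them (-0.160), and the HET pair against the HSC pair for snoRNA away from them (-0.0582); with overlapping peaks only, control against the HET pair inside coding genes for snRNA (-0.580) and snoRNA (-0.125). Pairing by replicate number (replicate block) left the overall differences at 3.36, 5.35 and 1.99 points with p = 0.5 by an exact sign-flip test, the smallest it can give; deviations of same-numbered libraries correlated at -0.0139, -0.00492 and 0.0941, and no label says that a number pairs them. Set sizes depended on the window: the control set held 22 genes with overlap only, 83 at 500 bp, 369 at 5 kb and 10 with lists of equal length, the HET set 26 with overlap only, 137 at 5 kb and 9 with equal lists, and the HSC set 1, or 7 at 5 kb, and 1 without the shared regions. Of the control set, 54.5% was in the HET set with overlap only. Leaving out 1 library gave control sets of 134 to 243 (highest without control library 2), HET sets of 49 to 80 (80 without HET library 2, 74 without HET library 1), HSC sets of 2 to 9 (9 without HSC library 2) and shared percents of 20.2 (without control library 2) to 46.3 (without HET library 2). The set of a group left with 1 library is that library's own count. It cannot be smaller than the set of the pair, so these rises follow from the definition. Of 141 named genes, 120 kept their number of libraries at the stricter q, 86 at 500 bp, 26 with overlap only and 8 with equal lists. The cause of the other shifts was not tested.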

Other observations

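Small Cajal body RNAs, many of which guide modification of spliceosomal snRNAs, carry the biotype guide RNA and were counted apart. Of 41 genes of that biotype, 4 and 3 held a peak within 1 kb in the control pair, 2 and 2 in the HET pair, and 0 and 0 in the HSC pair. These are 9.76% and 7.32% in the control pair and 4.88% in each HET library. Windows met a peak at 2.2% and 0.899% in the control pair and 0.526% and 0.449% in the HET pair. Scarna13 was called in both control libraries, Scarna2 in library 1 of them, and Scarna17 and Gm23119 in all 4 LSC libraries. Scarna17 and Gm23119 lie side by side on chromosome 18 and are not separate loci.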
